A study of Mus musculus with 9 samples.

Results

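Midkine (Mdk) and pleiotrophin (Ptn) are the 2 members of a family of secreted, heparin-binding growth factors, and syndecans and glypicans are the main heparan sulfate proteoglycans of the cell surface. The genes described here are Mdk, Ptn, the 4 syndecans Sdc1, Sdc2, Sdc3 and Sdc4 and the glypicans Gpc1, Gpc3, Gpc4 and Gpc6, found by their symbols as 10 of the 24453 genes in the deposited table. They were chosen from results of these same libraries, so their levels and differences are given as a description, without p-values. All 10 passed the filter on low reads, Mdk and Ptn through their reads in fibroblasts.

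RNA sequencing covered 3 groups of 3 libraries, each library from cells pooled from 3 to 5 mice. Hepatic stellate cells (HSCs), the vitamin A-storing pericytes of the sinusoid, were isolated by density gradient, without a sort for GFP, from normal livers of wild-type mice. CCl4-fib were CD45- GFP+ cells sorted from Col1a2-GFP Tg mice given carbon tetrachloride (CCl4), a hepatotoxin, 2 times per week for 8 weeks. NASH-fib were CD45- GFP+ cells sorted from MC/COL mice, which are Col1a2-GFP Tg and deficient in melanocortin 4 receptor (MC4R-KO), males fed Western diet (WD) for 20 weeks from the age of 8 weeks. Ages of the other mice are not given in the sources used here. In both fibroblast groups the collagen α2(I) promoter drives GFP, so the sort aimed at whichever liver cells used that promoter. Markers of other cells, such as hepatocytes, had reads in these libraries as well, as given below. Genotype, diet and toxin differ together between NASH-fib and CCl4-fib and cannot be told apart, and HSCs differ from both in the way they were isolated.

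Heparan sulfate chains are built on a protein core, sulfated in the Golgi and trimmed again outside the cell, and their sulfation sets which growth factors they hold. Syndecans carry the chains on transmembrane cores whose extracellular part can be shed. Glypicans carry them on cores tied to the membrane by a lipid anchor, and can raise or lower the response to Wnt, hedgehog and fibroblast growth factors. Midkine and pleiotrophin bind these chains as well as receptors such as Ptprz1 and Lrp1, and both are growth factors of development and repair that are low in the healthy adult liver.

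The glypican genes Gpc3 and Gpc4 are neighbours and changed in opposite directions, and Sdc3 fell together with Gpc4, so the sequences just upstream of these 3 genes are shown. Gpc4 (NM_008150) lies on the minus strand of chromosome X at chrX:52053018-52164923 (mm10) and Gpc3 (NM_016697) on the same strand at chrX:52272427-52613974, with a gap of 107503 bases that no other gene of the table touches. Sdc3 (NM_011520) lies on the plus strand at chr4:130792537-130826318. Each sequence holds the 250 bases before the start site, 5′ to 3′ on the strand of the gene, from RefSeq on GRCm38.p6 (the assembly of mm10). Capitals mark the matches, on either strand, to the GC box GGGCGG and to CCAAT.
Gpc4, chrX:52164924-52165173: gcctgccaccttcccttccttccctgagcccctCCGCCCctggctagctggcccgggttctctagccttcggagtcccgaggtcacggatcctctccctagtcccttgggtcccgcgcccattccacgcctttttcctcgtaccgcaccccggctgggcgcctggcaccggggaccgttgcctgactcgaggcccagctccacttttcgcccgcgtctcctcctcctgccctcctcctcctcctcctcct
Gpc3, chrX:52613975-52614224: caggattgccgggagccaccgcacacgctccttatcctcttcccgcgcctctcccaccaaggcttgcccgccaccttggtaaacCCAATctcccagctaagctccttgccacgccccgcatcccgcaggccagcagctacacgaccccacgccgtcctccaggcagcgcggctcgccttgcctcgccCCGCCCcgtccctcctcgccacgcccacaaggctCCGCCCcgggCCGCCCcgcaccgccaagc
Sdc3, chr4:130792287-130792536: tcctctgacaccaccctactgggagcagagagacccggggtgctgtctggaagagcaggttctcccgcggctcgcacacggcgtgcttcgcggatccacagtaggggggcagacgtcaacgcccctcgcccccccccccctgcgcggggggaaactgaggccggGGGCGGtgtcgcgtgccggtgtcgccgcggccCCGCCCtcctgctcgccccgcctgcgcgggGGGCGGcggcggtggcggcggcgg

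The 3 sequences are rich in CpG, with 18 in Gpc4, 25 in Gpc3 and 32 in Sdc3 against a median of 6 over the 32851 promoters of the table. Gpc4 held 1 GC box, 217 bases before the start. Gpc3 held 3, at 63, 29 and 19 bases, and a CCAAT box at 166 bases, and Sdc3 held 3 GC boxes, at 86, 54 and 24 bases. A GC box was found in 32.7% of all promoters and CCAAT in 33.9%. The TATA box TATAAA, found in 12.4% of all promoters, was not in these windows. Nor was the AP-1 motif TGACTCA, found in 4.46%, or the E-box CACGTG, found in 6.02%, and no 2 matches overlapped. Of the 10 genes, 6 have an entry in the promoter table, namely Ptn, Sdc1, Sdc3, Sdc4, Gpc3 and Gpc4.

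Libraries held 3071070 to 3825522 reads on genes in HSCs (median 3740541), 4687349 to 5634273 in CCl4-fib (median 5258041) and 3289758 to 5021156 in NASH-fib (median 4550212). Values are reads multiplied by 1 factor per library, and 3 reads equal a value of 2.38 to 4.37. Each pair of groups was tested by limma across 13651 genes, on log2 of the value plus 1, and a difference was called at an absolute log2 size of 1 or more with an adjusted p below 0.05. HSC replicate 2 and NASH-fib replicate 1 were the shallowest libraries, and their deviations from the group means correlated across genes (r = 0.645). Both carry the prefix 11-3 in their descriptions, whose meaning is not given, as does CCl4-fib replicate 1, which correlated with neither (r = -0.07 and -0.13). Mc4r had 0 reads in all HSC and CCl4-fib libraries and 4, 13 and 0 in NASH-fib, so it cannot check the labels. The summed value of 8 markers of quiescent stellate cells was 32101 to 38030 in HSCs, 4005 to 7023 in CCl4-fib and 2163 to 3201 in NASH-fib. Other lists differed between groups too. The 6 mesothelial markers summed to 601 to 985 in HSCs, 16042 to 22183 in CCl4-fib and 25119 to 31713 in NASH-fib. The 7 cholangiocyte markers summed to 39.8 to 72.9, 1373 to 3257 and 1131 to 1318, with Cldn4 at 0 in every HSC library. The 6 portal fibroblast markers summed to 156 to 199, 7070 to 9337 and 2424 to 5369, and the 5 smooth muscle markers to 99.0 to 172, 2848 to 13168 and 3029 to 19001. The 10 hepatocyte markers, in contrast, were highest in HSCs, at 24178 to 44835, against 2225 to 3313 in CCl4-fib and 8025 to 29890 in NASH-fib. The remaining lists stood at 5491 to 12277, 170 to 207 and 908 to 3121 for 7 sinusoidal endothelial markers, at 3255 to 10865, 175 to 270 and 503 to 2050 for 7 macrophage markers, and at 6261 to 12010, 45780 to 52913 and 23531 to 28038 for 7 markers of activated fibroblasts. Lymphocyte markers (6 in the table) summed to 24.6 to 62.2, 4.25 to 11.5 and 49.9 to 250, and the 5 neutrophil markers to 23.4 to 566, 5.55 to 60.1 and 372 to 3577. Within the activated fibroblast list, Postn ran the other way, at 2971 to 5577 in HSCs, 1435 to 2159 in CCl4-fib and 908 to 2353 in NASH-fib. Every other gene of that list was higher in each fibroblast library than in each HSC library. In bulk RNA, fewer cells of a type and less RNA per cell cannot be told apart.

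**Figure D1:**
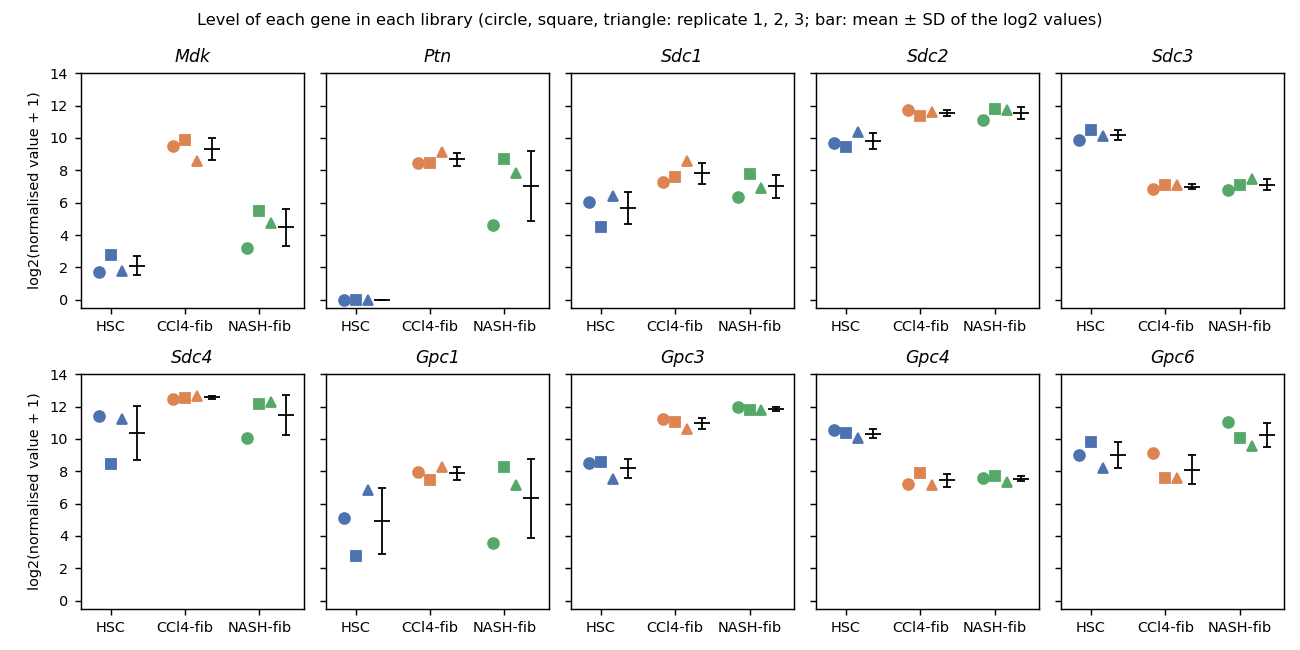
Level of each of the 10 genes in the 9 libraries, as log2(normalised value + 1) on the vertical axis, with 1 point per library and, beside each group, a bar at the mean ± SD of the log2 values (n = 3). Ptn is at 0 in the 3 HSC libraries, Sdc3 and Gpc4 are highest in HSCs, Gpc3 is higher in both fibroblast groups and Mdk stands far higher in CCl4-fib than in NASH-fib.

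Both growth factors were close to absent in HSCs and present in fibroblasts, but in different proportions by model and with few Mdk reads in NASH-fib. Mdk (NM_001012336, minus strand, chr2:91929805-91931859) had values of 2.34, 5.82 and 2.39 in HSCs, which are 2, 4 and 2 reads. In CCl4-fib its values were 710, 936 and 377, and in NASH-fib 8.16, 43.6 and 25.6, the latter being 6, 49 and 26 reads. The 3 groups did not overlap, with means of 3.52 ± 1.99, 674 ± 281 and 25.8 ± 17.7 (SD, n = 3). Between HSCs and NASH-fib this rested on 4 reads in HSC replicate 2 against 6 in NASH-fib replicate 1, the shallowest libraries. Over pooled reads, CCl4-fib held 204 times as much Mdk per total read as HSCs (exact 95% interval 103 to 473) and NASH-fib 8.37 times as much (4.05 to 20.1), intervals that cover counting error only. On the log2(value + 1) scale its differences from HSCs were 7.21 ± 0.66 in CCl4-fib and 2.38 ± 0.66 in NASH-fib (standard error, limma). Mdk entered the fit through its reads in fibroblasts, so these calls are a description and not support. The NASH-fib call was lost in 7 of the 9 fits without 1 library, all but those without HSC replicate 2 or NASH-fib replicate 1, with differences of 1.87 to 3.02, and under 4 of 11 other alternatives. Mdk was lower in NASH-fib than in CCl4-fib by a difference of -4.83 ± 0.66, a ratio of means of 26.2 in favour of CCl4-fib.

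Ptn (NM_008973, minus strand, chr6:36715663-36811361) had 0 reads in every HSC library. In CCl4-fib its values were 351, 342 and 569, and in NASH-fib 23.1, 411 and 228. NASH-fib replicate 1 was the low library, at 17 reads, while the other 2 NASH-fib libraries lay within or close to the range of CCl4-fib. Against a floor of 3 reads per library, Ptn exceeded its level in HSCs at least 110-fold in CCl4-fib, and at least 57.8-fold in NASH-fib. The NASH-fib bound was 32.9-fold without replicate 2, and replicate 1 alone stood 6.05-fold above the floor. Between the fibroblast groups its log2 difference was -1.64 ± 0.88 and the libraries overlapped, and without NASH-fib replicate 1 the difference was -0.41.

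Per kilobase of exon, Mdk made up 60.6% to 86.4% of the summed level of the pair in CCl4-fib and 19.7% to 45.0% in NASH-fib, so that the order of the growth factors was turned. The summed level was 986 ± 266 per kb in CCl4-fib and 139 ± 117 in NASH-fib. Several marker genes moved with Mdk. The sum of the portal fibroblast list was higher in CCl4-fib than in NASH-fib as given above. Within it, Fbln2 was 2999 to 4019 in CCl4-fib against 571 to 734 in NASH-fib. Entpd2 and Eln were higher in CCl4-fib too. Cd34 (2811 to 3219 against 1384 to 3644), Thy1 (91.0 to 109 against 84.3 to 415) and Gli1 overlapped between these groups. Within the mesothelial list, Upk3b was 1196 to 3916 in CCl4-fib against 141 to 965 in NASH-fib and Wt1 860 to 1649 against 379 to 466, while the sum of the list went the other way. Krt19, a keratin of cholangiocytes and mesothelium, was 771 to 2699 in CCl4-fib against 53.0 to 469, while the other 6 cholangiocyte markers summed to 375 to 602 against 788 to 1078. Their part in the level of Mdk was not tested.

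**Figure D2:**
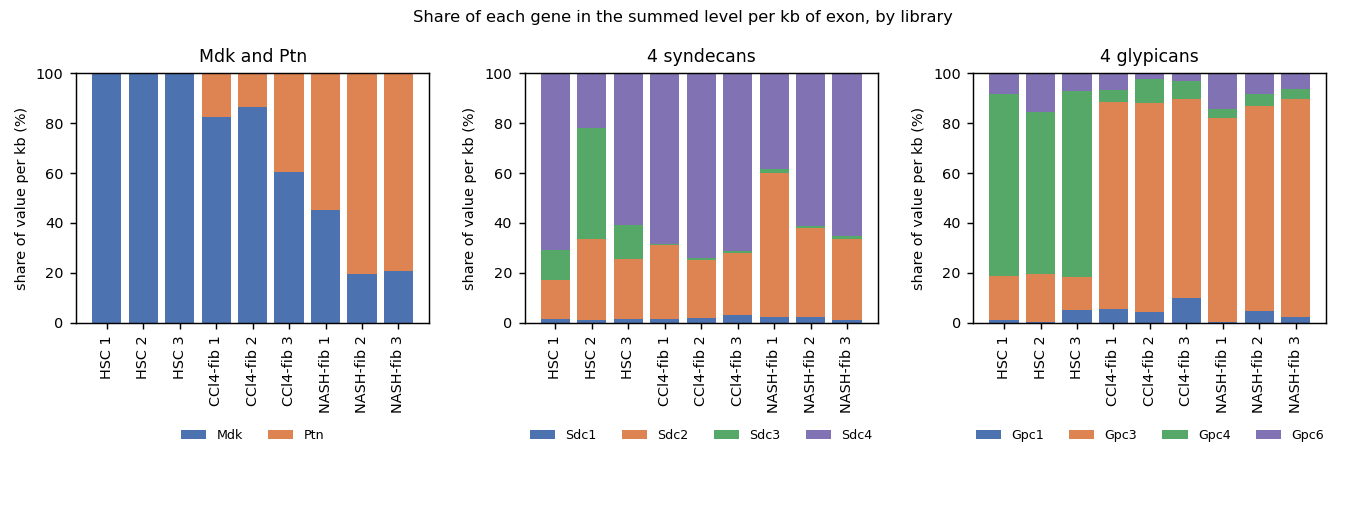
Share of each gene in the summed level per kb of exon of its family (%, vertical axis) in each of the 9 libraries, for Mdk and Ptn, for the 4 syndecans and for the 4 glypicans. Gpc4 fills 65.1% to 74.7% of the glypican bar in HSCs and at most 9.25% in fibroblasts, where Gpc3 takes its place, and the HSC bars of the growth factors rest on 2 to 4 reads per library.

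Among the syndecans, Sdc3 fell in both fibroblast groups, Sdc2 rose in both and Sdc1 rose in CCl4-fib, while Sdc4 was called in CCl4-fib by DESeq2 and not by limma or edgeR. Sdc3, a syndecan best known from the nervous system and muscle, had values of 935, 1440 and 1113 in HSCs. It fell to 112, 136 and 134 in CCl4-fib and to 107, 135 and 172 in NASH-fib. Both fibroblast groups lay far below the HSC range, with ratios of means of 9.14 and 8.41 in favour of HSCs, and they overlapped each other. Its log2 differences from HSCs were -3.17 ± 0.34 in CCl4-fib and -3.07 ± 0.34 in NASH-fib. Exons of Sdc3 overlap those of Gm12970 and Gm26716 on the other strand over 463 bases (GENCODE M21), whose reads cannot be told apart, since both strands were counted.

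Sdc2 (NM_008304, plus strand, chr15:32920723-33034721), the syndecan typical of mesenchymal cells, had values of 807, 693 and 1303 in HSCs. In CCl4-fib they were 3342, 2574 and 3053, and in NASH-fib 2175, 3550 and 3326. Every fibroblast library stood above every HSC library, by log2 differences of 1.72 ± 0.35 in CCl4-fib and 1.71 ± 0.35 in NASH-fib. With the description prefix as a term the NASH-fib difference was 1.51 and its call was lost. The difference between the fibroblast groups was -0.01 ± 0.35, and it was 0.18 with edgeR, 0.16 with DESeq2 and 0.17 with TMM factors, so no direction is read from it.

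Sdc4 (NM_011521, minus strand, chr2:164424247-164443188), a syndecan of focal adhesions found on many cell types, varied widely between replicates in HSCs and NASH-fib. HSC values were 2695, 348 and 2439, CCl4-fib values 5740, 6027 and 6526, and NASH-fib values 1070, 4499 and 5009. HSC replicate 2 and NASH-fib replicate 1, the shallowest libraries, were the low ones. CCl4-fib lay above both other groups without overlap, yet limma called no log2 difference, at 2.21 ± 0.79 in CCl4-fib and 1.13 ± 0.79 in NASH-fib against HSCs. The CCl4-fib difference was called with DESeq2 (1.67), with only the 2 groups compared (2.21), with the description prefix as a term (2.48), and without HSC replicate 3 or NASH-fib replicate 1. With both shallow libraries left out together it was 1.25 and was called, and NASH-fib stood 0.89 above HSCs. Sdc4 reached 2.95 reads per base. The counting took reads of both strands and at most 3 per position, and whether this flattened the high values of Sdc4 was not tested. Hepatocytes also express this gene, and the summed hepatocyte markers were lowest in CCl4-fib, where Sdc4 was highest, with a part in its level that was not tested.

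Sdc1 (NM_011519, plus strand, chr12:8771396-8793687), the main syndecan of epithelial cells and hepatocytes, was low throughout. Its values were 65.5, 21.8 and 84.9 for HSCs, 152, 194 and 376 for CCl4-fib and 80.2, 216 and 121 for NASH-fib. CCl4-fib stood above HSCs without overlap, by 2.14 ± 0.60 on the log2 scale, and NASH-fib, at 1.35 ± 0.60 above HSCs, was not called and overlapped both other groups. The call in CCl4-fib was lost when HSC replicate 2 was left out (1.57), as it was without CCl4-fib replicate 2 or replicate 3.

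The glypicans exchanged their main gene. Gpc4 had values of 1521, 1300 and 1066 in HSCs and fell to 145, 240 and 144 in CCl4-fib. In NASH-fib its values were 188, 208 and 163. Every HSC library stood far above every fibroblast library, and the fibroblast groups overlapped. Log2 differences from HSCs were -2.90 ± 0.34 in CCl4-fib and -2.79 ± 0.34 in NASH-fib. Gpc3, a glypican of the fetal liver and of liver tumours that restrains hedgehog signalling, had values of 357, 379 and 181 in HSCs. It rose to 2387, 2124 and 1556 in CCl4-fib and to 4093, 3495 and 3491 in NASH-fib. The 3 groups did not overlap, and ratios of means over HSCs were 6.63 in CCl4-fib and 12.1 in NASH-fib. Its log2 differences were 2.77 ± 0.36 and 3.66 ± 0.36. NASH-fib exceeded CCl4-fib by 0.89 ± 0.36, below the limit of 1 set for a call. The quiescent stellate cell markers were lower in both fibroblast groups, as Gpc4 and Sdc3 were, and the summed mesothelial markers stood in the same order as Gpc3. Between the fibroblast groups that order rested on Gpm6a, without which the other 5 markers summed to 9989 to 14579 in CCl4-fib and 5375 to 17927 in NASH-fib and overlapped. Their part in these changes was not tested.

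Per kb of exon, Gpc4 made up 65.1% to 74.7% of the 4 glypicans in HSCs, 4.94% to 9.25% in CCl4-fib and 3.67% to 4.76% in NASH-fib. Gpc3 took 13.0% to 19.4% in HSCs, 79.7% to 83.9% in CCl4-fib and 82.0% to 87.4% in NASH-fib. The summed glypican level per kb was 794 ± 154, 1086 ± 205 and 1955 ± 228, so the NASH-fib libraries held more glypican RNA in all as well as another main gene.

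Gpc6 (NM_001079844, plus strand, chr14:116925297-117979529), a glypican of growth plate cartilage and mesenchyme, separated the fibroblast groups from each other. Its values were 564, 189 and 192 for CCl4-fib and 2115, 1085 and 768 for NASH-fib, with 514, 897 and 298 for HSCs. NASH-fib stood above CCl4-fib without overlap, by 2.14 ± 0.57 on the log2 scale or 4.20 times in the means, and HSCs overlapped both. Its differences from HSCs, 1.23 ± 0.57 in NASH-fib and -0.91 ± 0.57 in CCl4-fib, were not called. The NASH-fib to CCl4-fib call was lost in 6 of the 9 fits that leave out 1 library (HSC replicate 1, CCl4-fib replicates 2 and 3 and each NASH-fib replicate), over which the difference ran from 1.74 to 2.66. With both shallow libraries left out together it was 1.74 and was called. Its neighbour Gpc5, at chr14:115092215-116525192 and 400104 bases away, had 0 reads in all 9 libraries, and Gpc2 reached a value of at most 11.1 and was not tested.

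Gpc1 (NM_016696, plus strand, chr1:92831686-92860196), the glypican of many adult tissues, had values of 33.9, 5.82 and 114 for HSCs, 242, 174 and 302 for CCl4-fib and 10.9, 309 and 140 for NASH-fib. HSC replicate 2 and NASH-fib replicate 1 were again the low libraries, with 4 and 8 reads. CCl4-fib stood above HSCs without overlap, but the log2 difference of 2.96 ± 1.19 was not called. With both shallow libraries left out together it was 1.89 and was called, as it was with only the 2 groups compared (2.96), without HSC replicate 3 (3.93) and without NASH-fib replicate 1 (2.96). NASH-fib overlapped the other groups, at 1.42 ± 1.19 above HSCs. Exons of Gpc1 overlap those of Ankmy1 on the other strand over 977 bases, and Ankmy1 was listed at 0 reads in all libraries.

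**Figure D3:**
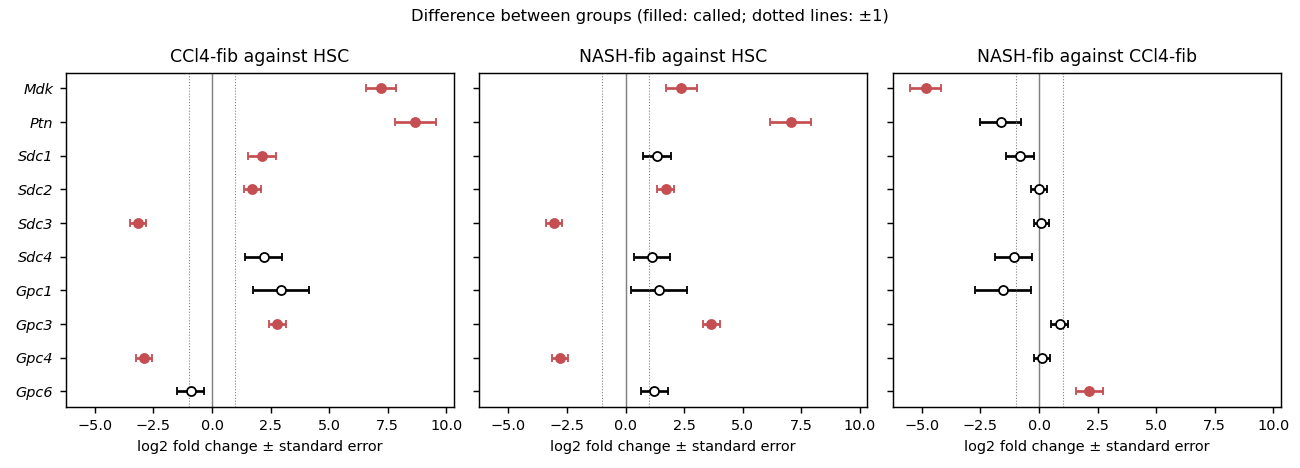
Log2 differences with their standard errors (horizontal axis) of the 10 genes in the 3 comparisons, filled where called (absolute log2 difference of 1 or more, adjusted p below 0.05). In both comparisons with HSCs, Sdc3 and Gpc4 are the genes called on the left. Gpc6 and Mdk are called in opposite directions between NASH-fib and CCl4-fib, and the size for Ptn against HSCs depends on the pseudocount.

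In CCl4-fib against HSCs, 5 of the 10 genes were called higher (Mdk, Ptn, Sdc1, Sdc2, Gpc3) and 2 lower (Sdc3, Gpc4), where 16.2% of all tested genes were called higher and 11.7% lower. Groups did not overlap for 9 of them, against 48.6% of all genes. In NASH-fib against HSCs, 4 were called higher (Mdk, Ptn, Sdc2, Gpc3) and the same 2 lower, against 8.23% and 4.30% of all genes, and 6 did not overlap, against 24.4%. In NASH-fib against CCl4-fib, Gpc6 was called higher and Mdk lower, against 4.97% and 5.66% (678 and 773 genes, where edgeR called 802 higher and 563 lower), and 4 did not overlap (Mdk and Sdc4 lower, Gpc3 and Gpc6 higher), against 39.1%. Both comparisons with HSCs share those 3 libraries. The median log2 difference of the 10 genes was 2.17, 1.38 and -0.40 in these comparisons, beside 0.18, -0.02 and -0.11 for all genes. The genes were chosen with such values known, and Mdk and Ptn passed the filter through the fibroblasts in which they are high, so nothing is read from these shares.

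Levels of different genes are compared per kb of exon. In HSCs the order was led by Sdc4 at 745 ± 525 and Gpc4 at 560 ± 98.2, whose libraries overlapped. Sdc2 at 283 ± 98.1 and Sdc3 at 234 ± 51.6 followed, below Gpc4 and overlapping each other, then Gpc3 at 135 ± 48.1 and Gpc6 at 84.2 ± 44.8. Sdc1 (18.8 ± 10.6), Gpc1 (14.4 ± 15.8) and Mdk (4.05 ± 2.30) overlapped in turn below them, and Ptn was last at 0.

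In CCl4-fib, Sdc4 led at 2486 ± 162 without overlap. Sdc2 (904 ± 117), Gpc3 (896 ± 188) and Mdk (777 ± 324) formed an overlapping set, above Ptn at 209 ± 63.8. Sdc1, Gpc4, Gpc1 and Gpc6 lay between 46.5 and 78.9 in their means, each overlapping the next, and Sdc3 was last at 25.6 ± 2.68.

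In NASH-fib, Gpc3 led at 1636 ± 153, overlapping Sdc4 (1438 ± 873), which overlapped Sdc2 (913 ± 223). Gpc6 (195 ± 104), Ptn (110 ± 96.5), Gpc4 (80.4 ± 9.60), Sdc1 (45.5 ± 22.8), Gpc1 (43.3 ± 42.2), Mdk (29.7 ± 20.4) and Sdc3 (27.8 ± 6.52) followed, each overlapping the next. Mdk was thus among the upper genes in CCl4-fib and next to last in NASH-fib, and Gpc4 moved from the second place in HSCs to the seventh and the sixth.

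Likeness of patterns was measured as the root-mean-square difference over the 9 libraries of log2(value + 1), each gene centred on its mean. Among the 10 genes, the closest pair was Sdc3 and Gpc4 at 0.37, followed by Sdc1 with Sdc4 at 0.59 and Sdc1 with Sdc2 at 0.60. Mdk and Ptn, the growth factors of 1 family, stood 2.09 apart, yet each was the closest of the 10 genes to the other. Such differences tend to be larger between genes that vary more. The root-mean-square of each gene around its own mean was 3.08 for Mdk and 3.9 for Ptn. It was 1.49 for Sdc3, 1.36 for Gpc4, 1.33 for Sdc4, 1.11 for Sdc1 and 0.86 for Sdc2. Over all tested genes, Mdk was closest to Gpx3 (0.44), Tm4sf5 (0.47) and Prss35 (0.65), and Ptn to Hspb7 (0.31), C1qtnf3 (0.78) and Mfap4 (0.79). Sdc3 was closest to Cadm3 (0.30), Arrb2 (0.34) and Ntn1 (0.37), and Gpc4 to Hoxb5 (0.30), Ccbe1 (0.31) and Stard8 (0.32). Gpc3 was closest to Mgat3 (0.15), Cyp2s1 (0.31) and Cdon (0.31), and Gpc6 to Slc12a2 (0.25), Ippk (0.27) and 9230114K14Rik (0.29). For the other genes the closest were Elf4 for Sdc1 (0.33), Hirip3 for Sdc2 (0.19), Abhd4 for Sdc4 (0.22) and Elovl1 for Gpc1 (0.38).

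A list of 61 other genes of the pathway, written with earlier results of these libraries known, covered receptors, other proteoglycans, and the enzymes that build, modify and cut heparan sulfate. All 61 are in the table and 47 were tested. In CCl4-fib against HSCs, 13 were called higher and 5 lower (27.7% and 10.6%, beside 16.2% and 11.7% of all genes). In NASH-fib against HSCs, 8 and 3 were called (17.0% and 6.38%, beside 8.23% and 4.30%). In NASH-fib against CCl4-fib, 4 and 4 were called (8.51% each, beside 4.97% and 5.66%). The list was written with earlier results known, so nothing is read from these shares. Median log2 differences of the 47 genes were 0.70, 0.02 and -0.65, beside the values for all genes given above. Replicates are pools, so adjusted p-values (limma, Benjamini-Hochberg over all 13651 genes) set each difference against the spread between pools, not between single mice.

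Of the enzymes that act on the chains outside the cell, the 3 tested genes were each called in both comparisons with HSCs. In each comparison 66.7% were called higher and 33.3% lower. All genes stood at 16.2% and 11.7% in CCl4-fib and at 8.23% and 4.30% in NASH-fib, and the list is too small to read a difference from them. Sulf1 and Sulf2 are endosulfatases that remove 6-O-sulfate from finished chains. Sulf1 had values of 256, 56.8 and 148 for HSCs, 2395, 1805 and 2322 for CCl4-fib and 3181, 4663 and 6660 for NASH-fib. Its log2 difference from HSCs was 5.15 ± 0.51 in NASH-fib (adjusted p = 0.000119) and 4.05 ± 0.51 in CCl4-fib (adjusted p = 0.000307). Sulf2 had values of 22.2, 14.6 and 27.5 for HSCs, 655, 810 and 462 for CCl4-fib and 276, 311 and 253 for NASH-fib. It rose by 4.85 ± 0.38 in CCl4-fib (adjusted p = 2.86e-05) and by 3.69 ± 0.38 in NASH-fib (adjusted p = 0.000150). Hpse, the heparanase that cuts the chains, went the other way. Its values of 920, 1126 and 692 in HSCs compared with 26.2, 33.2 and 30.5 for CCl4-fib and 182, 63.2 and 83.5 for NASH-fib. The log2 differences were -4.86 ± 0.44 (adjusted p = 5.14e-05) and -3.17 ± 0.44 (adjusted p = 0.000877). Between the fibroblast groups, Hpse was higher in NASH-fib by 1.70 ± 0.44 (adjusted p = 0.0370).

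Of the 10 tested genes of chain modification, 2 were called higher and 2 lower in each comparison with HSCs, 20% in each direction. For CCl4-fib against HSCs the shares over all genes were 16.2% higher and 11.7% lower. The NASH-fib comparison had 8.23% higher and 4.30% lower over all genes. Counts this small in the chain modification list cannot be read as a difference from all genes. Both genes called lower are 3-O-sulfotransferases, enzymes that add a rare sulfate, but so is Hs3st1, called higher in both comparisons and described further below. Hs3st3b1 had values of 6325, 4133 and 6601 in HSCs, and 82.1 to 234 in the 6 fibroblast libraries. It fell by 5.07 on the log2 scale in CCl4-fib (standard error 0.44, adjusted p = 4.17e-05) and fell by 4.93 in NASH-fib (adjusted p = 7.25e-05). Hs3st3a1 had values of 240, 293 and 139 for HSCs, 5.56, 11.1 and 0.95 for CCl4-fib and 48.9, 22.3 and 15.7 for NASH-fib. It fell by 5.32 (standard error 0.72, adjusted p = 0.000471) and by 3.00 (adjusted p = 0.0195), the latter call being lost without HSC replicate 1 or 2 and without NASH-fib replicate 2 or 3. The coding sequences of these 2 genes are closely related, and how reads were split between them was not tested. Hs6st2, a 6-O-sulfotransferase, had 0 reads in HSCs and values of 16.7, 31.5 and 21.9 in CCl4-fib, at least 6.11-fold higher (adjusted p = 0.00581). It was called in NASH-fib as well (adjusted p = 0.0222), on uneven values of 72.1, 2.67 and 11.8, at least 7.55-fold higher but 1.89-fold without replicate 1. Hs6st2 entered the fit through its reads in fibroblasts, so its calls are a description and not support.

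Single genes were called among the linker enzymes and the chain polymerases. Of 6 linker genes tested, Pxylp1, a phosphatase of the linker, was the 1 called higher in CCl4-fib against HSCs, 16.7% beside 16.2% of all genes (a log2 difference of 3.23 ± 0.81, adjusted p = 0.0139). In NASH-fib against HSCs, limma, edgeR and DESeq2 each called 0 linker genes, and 0 had an unadjusted p under 0.05. Between the fibroblast groups, limma and edgeR called 0 and DESeq2 1, and 2 had an unadjusted p under 0.05 by limma. Of 5 polymerization genes, Extl1, a glycosyltransferase of the exostosin family, was the 1 called higher in both comparisons with HSCs, 20% beside 16.2% of all genes in CCl4-fib and 8.23% in NASH-fib, and between the fibroblast groups the 3 tools called 0, with 2 at an unadjusted p under 0.05 by limma. Extl1 had 1 read in all HSC libraries together, and values of 55.6, 50.2 and 44.8 for CCl4-fib and 13.6, 20.5 and 25.6 for NASH-fib. Over pooled reads these were 120 times the HSC level in CCl4-fib (exact 95% interval 21.3 to 4773, adjusted p = 0.000136 in the limma fit) and 48.8 times in NASH-fib (8.42 to 1960, adjusted p = 0.00125). Both intervals cover counting error only. Extl1 entered the fit through its reads in fibroblasts, so its calls are a description and not support.

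Of the 4 shedding and release genes tested, Mmp7 was called higher and Mmp14 lower in NASH-fib against CCl4-fib, and Adam10 and Adam17 were not called. That is 25% in each direction, beside 4.97% and 5.66% of all genes, counts too small to read as a difference. Mmp7, a metalloproteinase that can shed syndecans from epithelium, had values of 74.8, 45.4 and 51.1 in NASH-fib, 0 reads in HSCs and 1 read in all CCl4-fib libraries. It was at least 14.9-fold higher in NASH-fib than in HSCs (adjusted p = 0.00027). Against CCl4-fib it was higher by 191 times over pooled reads (exact 95% interval 33.9 to 7607, adjusted p = 0.00477). This interval covers counting error only. Mmp7 entered the fit through its reads in NASH-fib, so its calls are a description and not support. The cholangiocyte marker Cftr moved with it, at 125 to 250 in NASH-fib, 0 to 28.1 in CCl4-fib and 0 to 9.35 in HSCs, and so did Epcam, at 20.6 to 66.6, 0.85 to 7.94 and 0 to 2.91. Sox9 was higher in NASH-fib too, at 254 to 578 against 114 to 237 in CCl4-fib, whereas Krt7 overlapped between those groups, and Krt19 and the sum of the whole list were higher in CCl4-fib. Their part in the level of Mmp7 was not tested. Mmp14, a membrane-bound metalloproteinase, ran the other way, at 776, 1494 and 1761 in CCl4-fib, 201, 222 and 137 in NASH-fib and 229, 266 and 239 in HSCs. It was lower in NASH-fib than in CCl4-fib by a log2 difference of -2.79 ± 0.38 (adjusted p = 0.00644).

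Of the 8 receptors and binding partners tested, 2 (25%) were called higher in CCl4-fib against HSCs, beside 16.2% of all genes, and 1 (12.5%) in NASH-fib against HSCs, beside 8.23%. Between the fibroblast groups 1 was called higher and 2 lower in NASH-fib (12.5% and 25%), beside 4.97% and 5.66%, counts too small to read as a difference from all genes. Between the fibroblast groups, the integrin subunit Itga4 was higher in NASH-fib by 3.35 ± 0.79 (adjusted p = 0.0267), with values of 393, 167 and 134 against 52.4, 19.6 and 6.68. Ptprs, a receptor phosphatase that binds heparan sulfate, was lower in NASH-fib by a log2 difference of -3.44 ± 0.91 (adjusted p = 0.0385), with values of 36.7, 453 and 201 against 1572, 1621 and 1740. Lrp1, an endocytic receptor for midkine, had values of 211, 1201 and 751 against 2889, 2772 and 2112, a difference of -2.16 ± 0.59 (adjusted p = 0.0435). Each of these calls was lost without NASH-fib replicate 1 or 3 and without CCl4-fib replicate 2 or 3, and those of Ptprs and Lrp1 also without HSC replicate 1 or CCl4-fib replicate 1. Over the 9 fits that leave out 1 library, the differences ran from 2.64 to 4.04, from -4.23 to -2.44 and from -2.69 to -1.43. Of the 12 other alternatives, 7 ended the call of Lrp1 and 3 that of Ptprs, edgeR and the replicate block among both. The receptor kinases Alk and Ltk had 0 reads in all libraries.

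Of the 6 other proteoglycans tested, 3 were called higher and 2 lower in CCl4-fib against HSCs (50% and 33.3%, beside 16.2% and 11.7% of all genes). In NASH-fib against HSCs, 1 was called higher (16.7%, beside 8.23%). These counts are too small to read as a difference from all genes. Nrp1, a co-receptor that can carry glycosaminoglycan chains, was higher in NASH-fib than in CCl4-fib by 1.88 ± 0.37 (adjusted p = 0.0152). Its values were 2694, 1707 and 1594 in NASH-fib, 709, 502 and 408 in CCl4-fib and 4345, 5603 and 3118 in HSCs, so the groups stood apart, with HSCs highest. Sinusoidal endothelial cells express Nrp1 as well, and their markers ran in the same order, with a part that was not tested. The call was lost without CCl4-fib replicate 2 or replicate 3. Of the 5 cytoplasmic partners of syndecans, limma, edgeR and DESeq2 each called 0 in every comparison. By limma, 1 had an unadjusted p under 0.05 in NASH-fib against HSCs, 1 in NASH-fib against CCl4-fib and 0 in CCl4-fib against HSCs.

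**Figure D4:**
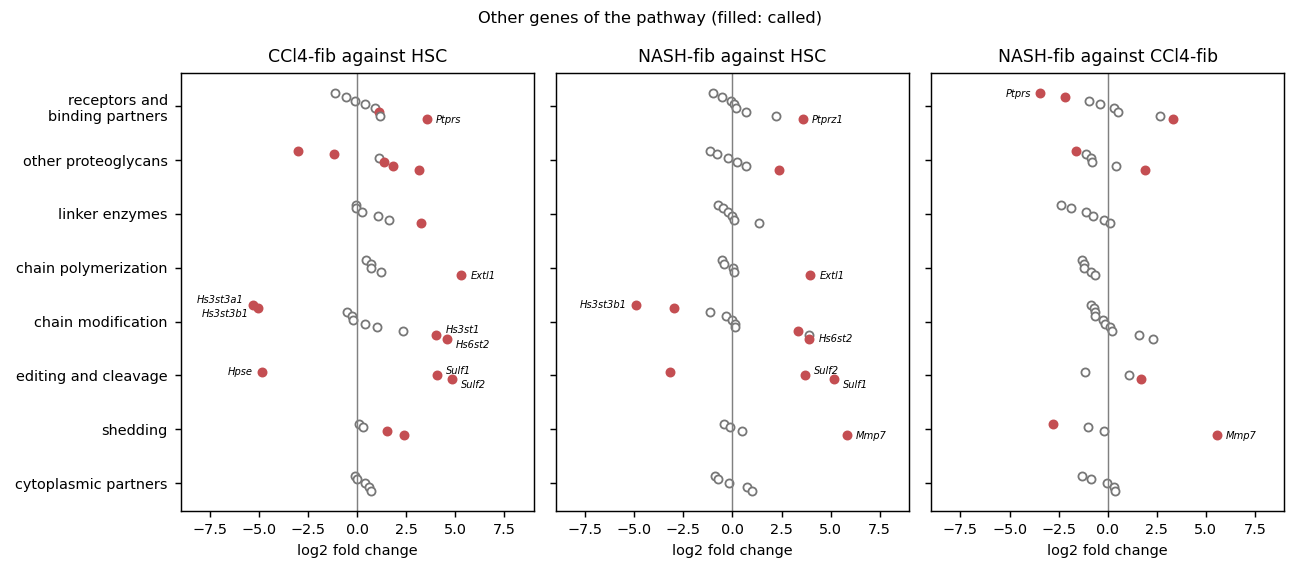
Log2 differences (horizontal axis) of the 47 tested genes of the pathway by list in the 3 comparisons, 1 point per gene, filled where called, with the largest called genes named. Sulf1 and Sulf2 lie far to the right and Hpse and Hs3st3b1 far to the left against HSCs, and the linker, polymerization and cytoplasmic lists hold few filled points. Sizes for Mmp7, Extl1 and Hs6st2 against a group with 0 or 1 read depend on the pseudocount.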

How the data were processed

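The 9 libraries were grouped by the sample titles. After SMARTer amplification and single-end sequencing, the authors used STAR to align reads to mm10 (the submitters' processing notes also list CASAVA, and versions are not given in the sources used here). The deposited values are a signal per gene, made by the authors with HOMER from reads of either strand on RefSeq exons, at most 3 per position, with 1 entry per gene, and scaled for DESeq2. Every library sums to about 4471990, and each library has 1 value per read, of which 100% of its values are whole multiples (tolerance 0.02), so depth was recovered. All 9 value columns were used and 0 were left unused. The lowest chi-square per gene between 2 libraries was 18.6, so none was a copy.

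The 10 genes, the 61 genes of the pathway and the marker lists were chosen with earlier results of these data known. The test was limma 3.58.1 (R 4.3.3) on log2(value + 1), fitted once to the 9 libraries, with the prior variance as a trend of the mean, on 13651 genes kept by filterByExpr of edgeR 4.0.16 (minimum count 10), tested on simulated data first. P-values were adjusted over these genes by the Benjamini-Hochberg method. Named genes were the 10 members, Gpc2, Gpc5, Mc4r, the markers, the 3 closest patterns per gene and, per comparison, the 3 called genes of the pathway list with the largest log2 difference in each direction whose groups did not overlap. Named outside this rule after their values were seen were Alk, Ltk, Pxylp1 and Hs3st1. A group with 3 reads or fewer in each library was taken to be at the floor. With 3 against 3, an exact two-sided permutation test cannot go below 0.1, so none was run. Deviations of same-numbered libraries had no common direction, so numbers were not used as pairs. For HSCs and NASH-fib, r was -0.473 at replicate 2 and 0.514 at replicate 3, the lowest and highest of these values. Alternatives were edgeR, DESeq2 1.42.0, TMM factors, pseudocounts of 0.25 and 10, no filter, a mean value over 100, only the 2 groups compared, the replicate number or the description prefix as a term, a constant prior variance, each library left out in turn and, chosen after seeing the data, both shallowest libraries left out together. Exon overlaps came from GENCODE M21. The level of 1 cholangiocyte marker is not reported here.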

Additional observations from a re-analysis of the deposited data

How the results depend on the processing

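Over 12 counts of called genes, 227 of 252 values under the alternatives stayed within 1.5 times the reported count, and of 1000 single-gene values 925 kept their direction and call. The changes among members and pathway genes were these, and their causes were not tested. In NASH-fib against HSCs, members called higher went from 4 to 2 with the description prefix as a term, which ended the calls of Mdk and Sdc2. Pathway genes called higher there went from 8 to 3 with a mean value over 100, which removes genes such as Mmp7 and Extl1, and to 5 with only the 2 groups compared and with the prefix, and those called lower from 3 to 5 with both shallowest libraries left out. In NASH-fib against CCl4-fib, members called higher went from 1 to 0 with a constant prior variance (1 at an unadjusted p under 0.05, and 1 called by edgeR and by DESeq2), and pathway genes called lower from 4 to 2 with edgeR, with the prefix and with the replicate block, which changed no other count by over 1.5 times. Leaving out 1 library gave 0 to 1 members higher, 1 to 5 pathway genes higher and 1 to 5 lower in that comparison, with 0 members without HSC replicate 1, CCl4-fib replicate 2 or 3, or any NASH-fib replicate. The scaling moved the median log2 difference of all genes between NASH-fib and CCl4-fib from -0.11 to 0.14 with edgeR and 0.12 with DESeq2, and that between CCl4-fib and HSCs from 0.18 to 0.00. Differences near 0 between the fibroblast groups changed sign, namely Sdc2 (0.18 with edgeR, 0.16 with DESeq2, 0.17 with TMM factors, 0.21 with both shallowest libraries left out, and -0.14 to 0.21 with 1 library left out), Sdc3 (-0.0709 to 0.27) and Gpc4 (-0.0114 to 0.35). Mdk in NASH-fib against HSCs had no value with only the 2 groups compared, and Mmp7, Extl1, Hs3st3a1 and Hs6st2 none with a mean value over 100, where the filter removed them. A value of 3 reads or fewer sets the limit of detection, and reads without molecular identifiers make it a counting limit only.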

Other observations

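Further pathway genes were called that the rule for names did not take, and they are given here after their values were seen, with adjusted p-values from limma over all tested genes. Col18a1, the heparan sulfate proteoglycan core of collagen XVIII, had values of 23.4, 30.6 and 92.1 for HSCs, 560, 336 and 274 for CCl4-fib and 133, 439 and 163 for NASH-fib. It rose in both fibroblast groups, by log2 differences of 3.17 ± 0.61 (adjusted p = 0.00337) and 2.36 ± 0.61 (adjusted p = 0.0273). Hspg2, the basement membrane proteoglycan perlecan, rose in CCl4-fib by 1.38 ± 0.34 (adjusted p = 0.0126) and was lower in NASH-fib than in CCl4-fib by a difference of -1.60 ± 0.34 (adjusted p = 0.0198). Cd44, a hyaluronan receptor that can carry heparan sulfate, rose in CCl4-fib by 1.84 ± 0.42 (adjusted p = 0.0091), while its NASH-fib difference of 0.71 ± 0.42 did not pass (adjusted p = 0.396). Tgfbr3, betaglycan, was lower in CCl4-fib than in HSCs by a difference of -1.20 ± 0.31 (adjusted p = 0.0166).

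Hs3st1, another 3-O-sulfotransferase, went against Hs3st3a1 and Hs3st3b1. Its values were 12.9, 4.37 and 3.59 for HSCs, 123, 158 and 74.4 for CCl4-fib and 58.5, 92.6 and 63.9 for NASH-fib, log2 differences of 4.03 ± 0.55 (adjusted p = 0.000509) and 3.35 ± 0.55 (adjusted p = 0.00242). Ptprz1, the receptor phosphatase that binds both midkine and pleiotrophin, was low, at 0 to 9.35 in HSCs, 1.59 to 15.3 in CCl4-fib and 40.3 to 69.5 in NASH-fib, and was higher in NASH-fib than in HSCs by 3.59 ± 0.97 (adjusted p = 0.0344). Its difference of 2.69 ± 0.97 from CCl4-fib did not pass (adjusted p = 0.102). Hs3st1 and Ptprz1 entered the fit through their reads in fibroblasts, so their calls are a description and not support. Adam17, a sheddase of syndecans, rose in CCl4-fib by 1.51 ± 0.46 (adjusted p = 0.0337), and Ncl, which encodes the midkine-binding protein nucleolin, by 1.13 ± 0.33 (adjusted p = 0.0266).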
